A study of Mus musculus with 29 samples.

Results

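Expression of 9 complement genes was followed in the mouse hypothalamus across 9 ages. The genes were taken by symbol from every count file: C1qa, C1qb and C1qc, C3, C4b, Serping1, Itgam, C3ar1 and C5ar1, which are 9 of the 24499 symbols counted. All 9 were found in every file, and all 9 passed the filter on low counts that left 16916 genes. The mice were C57BL/6, wild type and labelled male, and were singly housed with food and water freely available under a light and dark cycle. The hypothalamus was taken from mice at postnatal day 5 (P5), at 3, 4 and 5 weeks and at 2, 6, 12, 18 and 24 months, and its RNA was sequenced in paired reads. The libraries used numbered 3 at P5, 3 weeks, 2 months, 6 months, 12 months and 18 months, 4 at 4 and at 5 weeks, and 2 at 24 months. Levels are in CPM (counts scaled to library size) in tissue of mixed cells, so more cells of a type and more RNA per cell cannot be told apart. Nothing in the labels says more of how replicates differ than that they are separate samples, so p-values measure the spread between these samples.

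Complement is a cascade of secreted proteins that tags surfaces for removal. C1q, built from the products of C1qa, C1qb and C1qc, recognises a target and starts the classical pathway, which cleaves C4 and then C3. The C3 fragments left on the surface are bound by the receptor CR3, whose alpha chain CD11b is made from Itgam, and the small fragments C3a and C5a act on the receptors made from C3ar1 and C5ar1. Serping1 makes the C1 inhibitor, which blocks the proteases of the first step. In the brain C1q is made chiefly by microglia and C4 also by glia and neurons. C1q, C3 and CR3 are known in mice for their part in the removal of synapses during development.

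The C1q genes lie side by side on chromosome 4 and Itgam lies on chromosome 7. Their positions in GENCODE release M21 (GRCm38) are chr4:136895917-136898803 for C1qa, chr4:136880129-136886187 for C1qb and chr4:136889804-136893065 for C1qc, all on the minus strand, and chr7:128062640-128118491 for Itgam on the plus strand. C3 and C4b lie at chr17:57203970-57228136 and chr17:34728380-34743882, C3ar1 at chr6:122847138-122856161, C5ar1 at chr7:16246743-16259540 and Serping1 at chr2:84765387-84775444, all on the minus strand. The promoter windows of C1qb, C1qc and Itgam are shown because these genes had the 3 smallest p-values of the 9 between 3 weeks and P5 and are all used by microglia. Each window is 300 bases long, on the gene's own strand, from RefSeq (GRCm38.p6), at chr4:136886151-136886450 for C1qb, chr4:136892865-136893164 for C1qc and chr7:128062390-128062689 for Itgam. Capitals mark the letters GAGGAA or their reverse complement, the core bound by PU.1, a transcription factor of myeloid cells.
C1qb: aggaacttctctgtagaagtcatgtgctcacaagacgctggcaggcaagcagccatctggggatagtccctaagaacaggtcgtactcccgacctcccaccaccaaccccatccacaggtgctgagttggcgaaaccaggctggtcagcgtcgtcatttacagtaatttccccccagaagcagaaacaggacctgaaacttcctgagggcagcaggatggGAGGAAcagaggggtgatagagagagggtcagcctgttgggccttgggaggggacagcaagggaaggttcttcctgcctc
C1qc: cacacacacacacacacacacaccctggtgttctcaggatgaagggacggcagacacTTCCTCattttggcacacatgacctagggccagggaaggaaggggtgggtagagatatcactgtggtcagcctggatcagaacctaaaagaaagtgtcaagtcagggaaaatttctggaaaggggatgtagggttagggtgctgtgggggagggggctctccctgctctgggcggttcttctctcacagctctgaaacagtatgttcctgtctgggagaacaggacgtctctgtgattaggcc
Itgam: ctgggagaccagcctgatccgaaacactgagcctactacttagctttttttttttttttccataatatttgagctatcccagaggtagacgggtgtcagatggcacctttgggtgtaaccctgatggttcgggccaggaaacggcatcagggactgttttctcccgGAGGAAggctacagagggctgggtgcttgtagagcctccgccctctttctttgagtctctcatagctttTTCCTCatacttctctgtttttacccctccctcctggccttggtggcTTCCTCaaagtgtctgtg
GAGGAA was found once in the C1qb window at bases 221 to 226, once in the C1qc window at bases 58 to 63 on the opposite strand, and 3 times in the Itgam window. It was in none of the windows of C3, C3ar1 and C5ar1, and on either strand it was in 28.3% of all 32851 windows of this length. The STAT site letters TTCNNNGAA, present in 8.30% of all windows, were in none of the 6 windows searched. The interferon-stimulated response element core GAAANNGAA, present in 8.56% of all windows, was in that of C5ar1 alone, and it overlapped no other match. C1qa, C4b and Serping1 were not searched.

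The libraries held 24661631 to 39783779 gene counts. The hypothalamic markers (neuropeptide and transcription factor genes) were found at every age, but their sum was lowest at 2 months, where markers of midbrain and hindbrain were high. P5 replicates 1 and 2 are labelled male and held Xist at up to 791 CPM and the Y-linked Ddx3y at 0. For the complement genes named, calls that rest on these libraries are given with and without them.

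Between 3 weeks and P5, 6 of the 9 genes rose and none fell. Over all genes tested, 59% passed the same threshold (adjusted p below 0.05) with 29.8% higher and 29.3% lower, so a call was common at this step. The 6 were the C1q subunit genes, C4b, Itgam and C5ar1, and the median log2 change over the 9 was 1.36, beside a median near 0 over all genes. C3, C3ar1 and Serping1 did not pass the test. The C1q subunits, C4b and Itgam kept their calls in each fit that left out 1 library or kept only replicate 3 at P5.

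The 3 C1q chains rose by similar amounts. C1qa had 59.4, 54.6 and 51.1 CPM at 3 weeks, against 20.96, 24.3 and 18.2 CPM at P5. C1qb had 48.9, 44.1 and 44.1 CPM at 3 weeks, against 14.1, 18.4 and 15.4 CPM at P5. C1qc had 55.7, 59.2 and 50.2 CPM at 3 weeks, against 19.5, 24.0 and 20.7 CPM at P5. For each chain every 3-week library lay above every P5 library. How many of all genes separated in this way at this step was not counted. The log2 changes were 1.38 ± 0.14 for C1qa (adjusted p = 4.84e-09), 1.52 ± 0.10 for C1qb (adjusted p = 6.84e-12) and 1.36 ± 0.10 for C1qc (adjusted p = 4.53e-11) by edgeR's quasi-likelihood test with Benjamini-Hochberg adjustment, where ± is 1 SE. The 13 homeostatic microglia markers, none of them a complement gene here, all rose over the same step with a median log2 change of 1.01 (1.12 with P5 replicate 3 alone, again 13 of 13). Markers of other kinds rose too: 8 of 8 of oligodendrocytes (median 6.43), 11 of 12 interferon-response genes (1.85), 6 of 8 of astrocytes, 5 of 8 of endothelium and 6 of 13 of the hypothalamus, and the part of these lists in the result was not tested. The microglia markers summed to 370 to 416 CPM at 3 weeks and 177 to 191 CPM at P5. Relative to that sum, which leaves C1qa out, C1qa stood at 14.2 ± 0.59% at 3 weeks and 11.4 ± 1.2% at P5 (SD, n = 3 each). The ranges did not overlap.

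**Figure D1:**
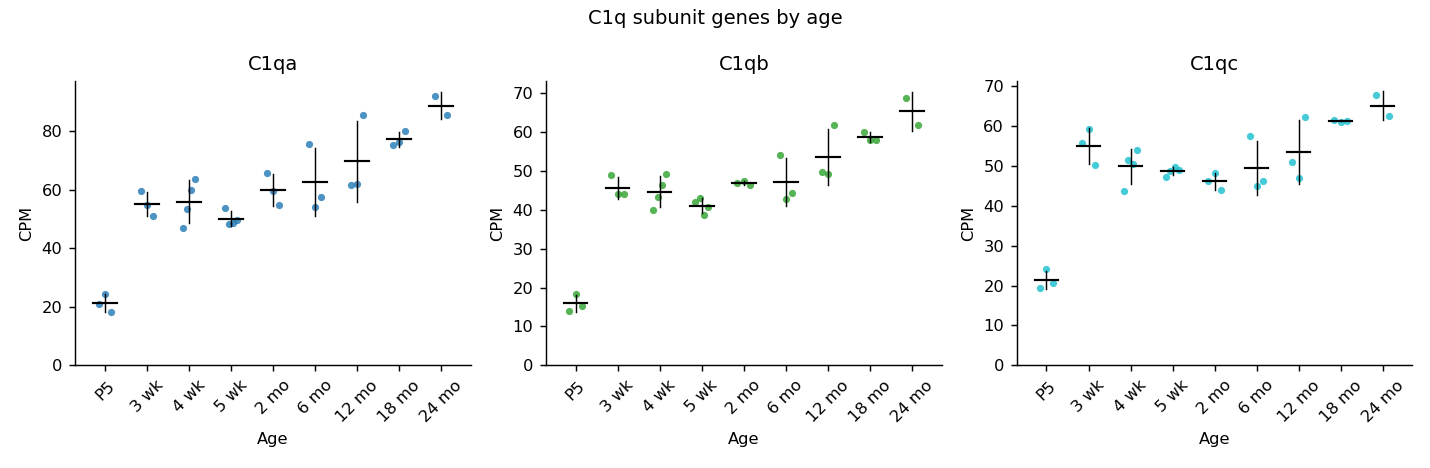
CPM of C1qa, C1qb and C1qc in each of 28 libraries (points) by age, with the mean (horizontal bar) and 1 SD (vertical line). All P5 libraries lie at or below 24.3 CPM and all later libraries at or above 38.7 CPM, and C1qa has its highest mean at 24 months, with 85.4 and 92.0 CPM in the libraries.

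Itgam, which makes the CD11b chain of CR3, showed the largest rise of the 9 at this step. It had 22.6, 20.95 and 20.9 CPM at 3 weeks, against 6.79, 6.44 and 5.89 CPM at P5, a log2 change of 1.75 ± 0.16 (edgeR, adjusted p = 9.45e-10). The spread within each age was under 1 CPM (SD), and the groups did not overlap, a separation that was not counted over all genes. Itgb2, which makes the CD18 chain that pairs with CD11b, rose by 1.67 ± 0.19 (edgeR, adjusted p = 4.32e-08), and by 1.91 with P5 replicate 3 alone at P5 (adjusted p = 9.05e-06). Relative to the microglia marker sum, which leaves Itgam out, Itgam stood at 5.55 ± 0.12% at 3 weeks and 3.45 ± 0.18% at P5 (SD, n = 3 each).

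C4b, the C4 gene of the classical pathway in mice, had 15.5, 15.4 and 11.5 CPM at 3 weeks, against 3.31, 6.93 and 4.64 CPM at P5. All 3-week libraries lay above all P5 libraries, a separation that was not counted over all genes. The log2 change was 1.5005 ± 0.35 (edgeR, adjusted p = 0.000855). C5ar1, the C5a receptor gene and the lowest of the 9, had 0.722, 0.795 and 0.595 CPM at 3 weeks, against 0.234, 0.316 and 0.475 CPM at P5. Its log2 change was 1.01 ± 0.38 (edgeR, adjusted p = 0.0252). That call was lost when P5 replicate 1 or 2 or 3-week replicate 1 or 2 was left out (adjusted p 0.0542 to 0.104), and its lowest count in any library was 7 reads. With P5 replicate 3 alone at P5, the calls of the other 5 genes held and C5ar1 gave 0.55 (adjusted p = 0.417).

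The 3 genes without a call had log2 changes below 0, each smaller in size than its SE. Modest changes in either direction cannot be told from none at these errors. C3 had 3.10, 3.86 and 2.38 CPM at 3 weeks, against 2.77, 2.44 and 4.36 CPM at P5, and the ranges overlapped (log2 change -0.04 ± 0.33). C3ar1, the C3a receptor gene, averaged 1.73 ± 0.13 CPM at 3 weeks and 1.91 ± 0.52 CPM at P5 (SD, n = 3 each), a log2 change of -0.14 ± 0.24. Serping1 averaged 7.29 ± 2.87 CPM at 3 weeks and 8.91 ± 3.03 CPM at P5 (log2 change -0.30 ± 0.36).

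Between 5 and 3 weeks none of the 9 genes passed the test in edgeR, none had an unadjusted p below 0.05, and DESeq2 called none. Of all genes, 2.15% were called, 0.698% higher and 1.45% lower. The log2 changes ran from -0.52 for C5ar1 to 0.08 for C4b. C1qa, for example, averaged 50.1 ± 2.54 CPM at 5 weeks (n = 4), against 55.1 ± 4.20 CPM at 3 weeks (n = 3).

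Between 6 months and 5 weeks C4b, C3 and Itgam rose, which makes 3 of 9, where 13% of all genes were called, 4.58% higher and 8.39% lower. C4b had 48.1, 31.5 and 35.6 CPM at 6 months, against 14.1, 12.6, 18.9 and 14.2 CPM at 5 weeks. Every 6-month library lay above every 5-week library, and the log2 change was 1.36 ± 0.29 (edgeR, adjusted p = 0.00402). C3 had 5.80, 6.61 and 4.06 CPM at 6 months, against 2.49, 2.84, 2.67 and 3.19 CPM at 5 weeks (log2 change 0.97 ± 0.31, edgeR, adjusted p = 0.0385). Itgam had 28.9, 24.5 and 25.1 CPM at 6 months, against 16.2, 20.0, 21.1 and 18.5 CPM at 5 weeks (log2 change 0.47 ± 0.14, edgeR, adjusted p = 0.0265). The groups did not overlap for these genes, nor for C1qa, C3ar1 and C5ar1, which were not called. How many of all genes separated in this way was not counted.

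The call of C4b held in each fit that left out 1 library, but those of C3 and Itgam did not. C3 lost its call without any 1 of the 5-week libraries or without 6-month replicate 32 or 33 (log2 change 0.82 to 1.04, adjusted p 0.0518 to 0.151). Itgam lost it without 5-week replicate 1 or 4 or 6-month replicate 32 (log2 change 0.39 to 0.46, adjusted p 0.0541 to 0.125). Of the microglia markers 2 of 13 rose and 1 fell over this step, and of the oligodendrocyte markers 6 of 8 fell. Of the midbrain and hindbrain markers 3 of 7 rose (median log2 change 1.24), and of the hypothalamic markers 1 of 13 fell (median -0.72). The share of reads of low mapping quality was 5.54 to 5.97% at 6 months, against 9.31 to 11.2% at 5 weeks. The part of these lists and of this share in the result was not tested. The C1q chains were not called: C1qa averaged 62.5 ± 11.6 CPM at 6 months and 50.1 ± 2.54 CPM at 5 weeks (log2 change 0.32, adjusted p = 0.0863), and C1qc averaged 49.5 ± 6.84 CPM at 6 months and 48.7 ± 1.06 CPM at 5 weeks (log2 change 0.03).

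At the age in between, 2 months, the genes stood in different places. C4b had 23.3, 31.0 and 25.8 CPM, above all 5-week libraries and below all 6-month libraries. C3 was at its lowest of all ages, at 2.07, 2.22 and 2.28 CPM. With 2 months in place of 6 months the log2 changes from 5 weeks were 0.84 for C4b (adjusted p = 0.0568), -0.35 for C3 and -0.10 for Itgam, and none of the 9 genes was called. The 2-month libraries stood apart in their makeup. The 13 hypothalamic markers summed to 424 to 569 CPM at 6 months, against 90.3 to 227 CPM at 2 months, which were the lowest sums of any age from 3 weeks on. The midbrain and hindbrain markers summed to 9.44 to 47.3 CPM at 6 months, against 48.1 to 62.5 CPM at 2 months. One 2-month library, replicate 11, also held the least microglia marker sum after P5, at 264 CPM, and the least Itgam, at 10.9 CPM.

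From 2 to 24 months, 5 of the 9 genes rose with age: the C1q subunit genes, C4b and C3. In this fit of log2 level on age in months over 14 libraries, 7.43% of the 16633 genes tested were called and 3.08% rose and 4.35% fell. Per month the log2 slope was 0.0919 ± 0.0183 for C4b (edgeR, adjusted p = 0.0113) and 0.101 ± 0.0228 for C3 (adjusted p = 0.0169). The slopes of the C1q chains were flatter, with smaller errors, at 0.0256 ± 0.0055 for C1qa (adjusted p = 0.0135), 0.0229 ± 0.0041 for C1qb (adjusted p = 0.00758) and 0.0237 ± 0.0043 for C1qc (adjusted p = 0.00789). C3ar1 (0.0295, adjusted p = 0.0844), C5ar1 (0.0248), Itgam (0.0207, adjusted p = 0.171) and Serping1 (-0.0365, adjusted p = 0.147) were not called in edgeR. DESeq2 called C3ar1 as well (adjusted p = 0.0438), and with log2 of age in place of months edgeR called C3ar1 (adjusted p = 0.0436) and Itgam (adjusted p = 0.0371).

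These calls need the 2-month libraries. Without them the slopes were 0.0725 for C4b (adjusted p = 0.462), 0.0587 for C3 (adjusted p = 0.514), 0.0275 for C1qa, 0.0259 for C1qb (adjusted p = 0.198) and 0.0235 for C1qc, and no gene of the whole table was called. C3 also lost its call without any 1 of the 2-month libraries or without 24-month replicate 2. C1qa lost it without 24-month replicate 2 (edgeR, adjusted p = 0.0524). It also lost it without the 24-month libraries as a group, with a slope of 0.0238 (edgeR, adjusted p = 0.0855). No microglia marker was called in the trend, while 5 of 12 interferon-response genes and 1 of 13 hypothalamic markers rose. Those that fell were 8 of 8 oligodendrocyte, 5 of 7 midbrain and hindbrain, 4 of 8 fibroblast, 4 of 8 astrocyte and 3 of 8 endothelial markers. Without the 2-month libraries none of these was called, and the part of these lists in the result was not tested.

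The single libraries show how C4b climbed and spread. After P5 it averaged 14.1 CPM at 3 weeks, 13.1 at 4 weeks, 14.97 at 5 weeks, 26.7 at 2 months and 38.4 at 6 months. It then had 65.4, 43.8 and 105 CPM at 12 months, 160, 67.3 and 91.9 CPM at 18 months, and 87.9 and 70.4 CPM at 24 months. The mean at 18 months was 21.5 times that at P5. In the order of the means, P5 and 4 weeks, 5 weeks and 2 months, and 2 and 6 months did not overlap as neighbours, whereas from 6 months on each age overlapped its neighbour. C4a, a near-identical copy of C4b, had 0.168 to 2.41 CPM in all libraries, and reads of the pair may have been divided between them by the counting.

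C3 spread in the same libraries. It had 9.40, 6.27 and 13.7 CPM at 12 months, 18.9, 8.38 and 7.45 CPM at 18 months, and 14.8 and 7.40 CPM at 24 months. Within each of these ages the library with the most C3 also had the most C4b: replicate 28 at 12 months, replicate 14 at 18 months and replicate 2 at 24 months. These 3 libraries also had the highest interferon-response sum of their age, at 191, 195 and 169 CPM, beside 110 to 120 CPM in the 6-month libraries. They also had the highest choroid plexus marker sum of their age, at 4906, 3289 and 96.9 CPM. The same held for the hypothalamic marker sum, at 1652, 1179 and 1152 CPM. It held too for the fibroblast and meningeal marker sum, at 377.7, 199.6 and 148.1 CPM. Replicate 28 had the highest sum of its age in every marker list. At 4 weeks replicate 3 had the most of both C3 and C4b, but at P5, 3 weeks, 5 weeks, 2 months and 6 months the libraries differed. Replicate 28 also had the most C1qa, Serping1, C3ar1 and Itgam at 12 months. The match at 12 to 24 months was seen after the values were known, and its part in the result was not tested.

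**Figure D2:**
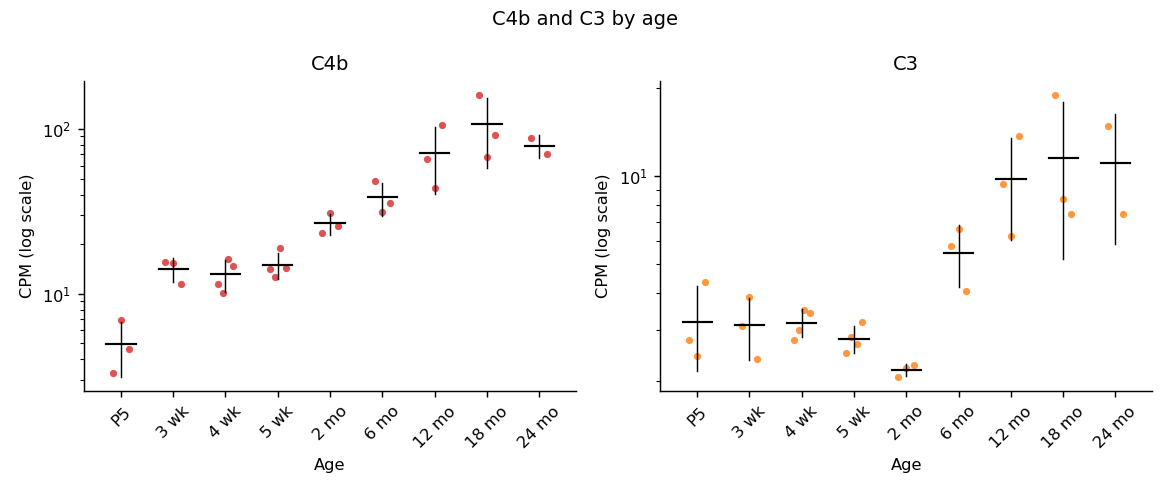
CPM of C4b and C3 in each of 28 libraries (points) by age on log axes, with the mean (horizontal bar) and 1 SD (vertical line). C4b lies between 3.31 and 6.93 CPM at P5 and between 67.3 and 160 CPM at 18 months, and C3 is lowest at 2 months (2.07 to 2.28 CPM).

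Against 6 months alone the later ages gave no call for any of the 9 genes in edgeR. All 3 comparisons share the 6-month libraries, so they are given side by side. At 12 months no gene of the whole table was called (0%), at 18 months 0.0177% were and at 24 months 0.106% (0.0769% higher and 0.0296% lower). The numbers of the 9 genes with an unadjusted p below 0.05 were 2, 5 and 5, where 1548, 1315 and 1600 of all 16916 genes had one. DESeq2 called 0, 1 and 1 of the 9, and 24, 18 and 109 of all genes. The log2 changes of C4b were 0.89 ± 0.31 at 12 months, 1.47 ± 0.31 at 18 months and 1.04 ± 0.33 at 24 months (edgeR, adjusted p = 0.385, 0.219 and 0.251), and DESeq2 called the change at 18 months (adjusted p = 0.0111). In edgeR that change was called only without 18-month replicate 15, at 1.72 (adjusted p = 0.0431). C1qb changed by 0.47 ± 0.11 at 24 months (edgeR, adjusted p = 0.103; DESeq2, adjusted p = 0.0136), with 68.9 and 61.9 CPM at 24 months, against 54.2, 42.8 and 44.4 CPM at 6 months.

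With 18 and 24 months pooled against 6 and 12 months, none of the 9 genes was called in edgeR, where 0.0296% of all genes were. Of the 9, 5 had an unadjusted p below 0.05, beside 1107 of all 16916 genes. DESeq2 called 46 of all genes, among them C1qb (adjusted p = 0.0401) and C1qc (adjusted p = 0.0492). C1qb averaged 61.3 CPM over the 5 older libraries, against 50.4 CPM over the 6 younger, a log2 change of 0.30 ± 0.07 (edgeR, adjusted p = 0.195). C1qc gave 0.30 (adjusted p = 0.207), C4b 0.81 ± 0.22 (adjusted p = 0.372) and C3 0.63. Itgam gave 0.06, with 26.5 CPM over the older libraries, against 25.6 CPM over the younger.

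**Figure D3:**
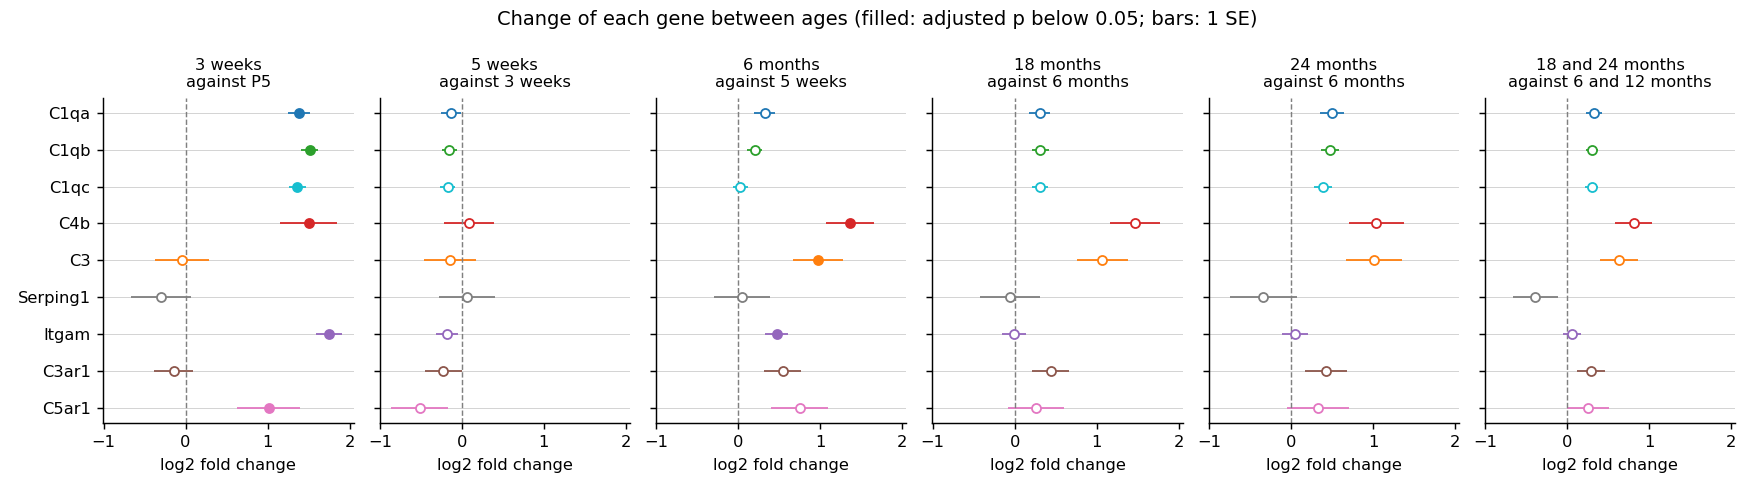
Log2 fold change (later over earlier age, horizontal axis) of the 9 genes in 6 comparisons, with 1 SE as bars. Filled points passed an adjusted p of 0.05 in edgeR: 6 genes between 3 weeks and P5, 3 between 6 months and 5 weeks, and none in the other 4 panels.

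Over the whole series the largest step of C1qa was the one after P5. Its means were 21.1 CPM at P5, 55.1 at 3 weeks, 55.9 at 4 weeks, 50.1 at 5 weeks, 60.0 at 2 months, 62.5 at 6 months, 69.7 at 12 months, 77.2 at 18 months and 88.7 at 24 months. P5 stood below every other age, the 24-month libraries (92.0 and 85.4 CPM) stood above the 18-month libraries (75.2, 76.3 and 80.1 CPM), and the neighbours in between overlapped. The microglia marker sum did not climb with it, at 344 to 428 CPM at 6 months, 365 to 433 at 12 months, 368 to 404 at 18 months and 378 to 393 at 24 months. Relative to that sum, which leaves C1qa out, C1qa stood at 18.3 ± 5.6% at 2 months (SD, n = 3), with replicate 11 at 24.8%. Later values were 16.5 ± 1.0% at 6 months, 17.8 ± 1.7% at 12 months, 20.0 ± 0.37% at 18 months (n = 3 each) and 23.0 ± 0.56% at 24 months (n = 2). At 2, 6, 12, 18 and 24 months the percentages of C1qb were 14.2 ± 3.2, 12.5 ± 0.15, 13.8 ± 0.44, 15.2 ± 1.0 and 16.95 ± 0.81%, and those of Itgam 5.08 ± 0.89, 6.95 ± 0.19, 6.48 ± 0.46, 6.78 ± 0.20 and 7.03 ± 0.38%. These percentages were not tested.

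The chains also differed among themselves. Per kilobase of the longest coding transcript, C1qa averaged 20.3 ± 2.94 CPM at P5 and 85.3 ± 4.49 CPM at 24 months, above C1qb (14.7 ± 2.06 and 60.1 ± 4.55) and C1qc (17.8 ± 1.96 and 54.2 ± 3.07) at both ages. C1qc stood above C1qb at P5 and below it at 24 months on that scale, and below it at both ages when the 1931 bases of all its annotated exons were used in place of the 1203 bases of that transcript. The ratio of C1qc to C1qb in CPM was 0.946 to 1.06 in the 14 libraries of 2 to 24 months, against 1.09 to 1.38 in the 14 libraries of P5 to 5 weeks. The 2 ranges did not overlap; the split was seen after the values were known, and no test was made of it. The share of reads of low mapping quality was 5.00 to 5.98% in the 14 older libraries, against 5.74 to 11.2% in the 14 younger, and its part in the ratio was not tested.

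**Figure D4:**
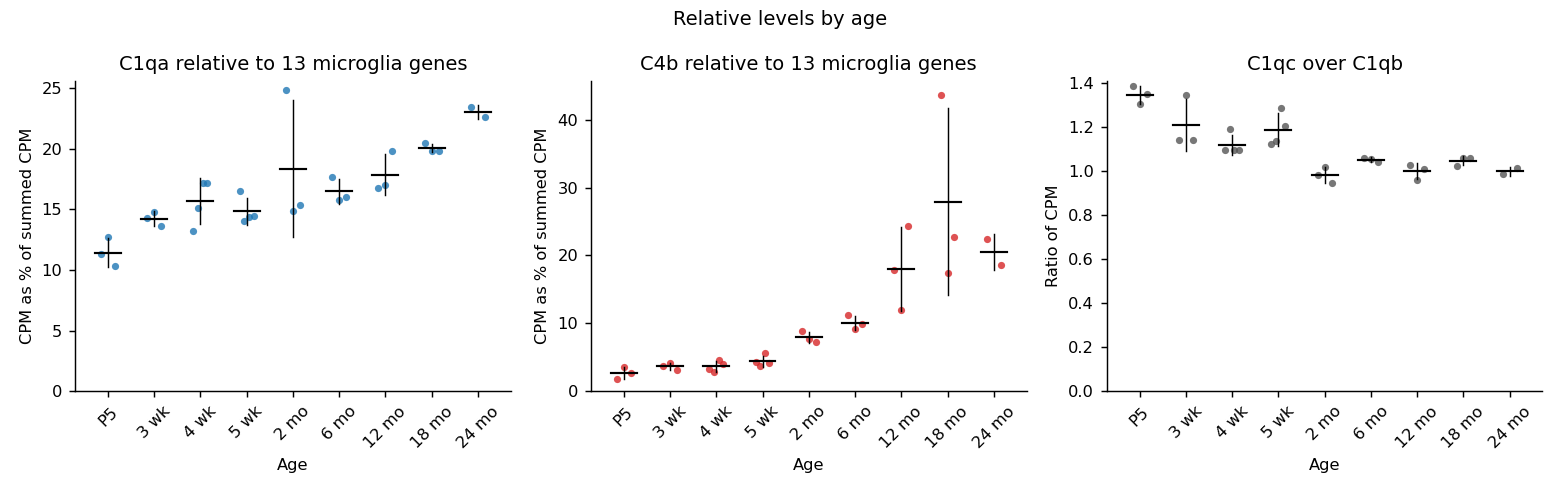
Left and centre, CPM of C1qa and C4b as a percentage of the summed CPM of 13 microglia markers; right, the ratio of C1qc to C1qb CPM, each in 28 libraries (points) by age with the mean (horizontal bar) and 1 SD (vertical line). C1qa reaches 23.0% at 24 months, C4b reaches 27.9% at 18 months with a wide spread, and the ratio lies at or below 1.06 from 2 months on.

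Over all 9 ages, 8 of the 9 genes differed in edgeR's F-test, where 76.8% of all genes did. The exception was Serping1 (adjusted p = 0.299). It ranged from 4.31 to 16.2 CPM, and its highest library was 12-month replicate 28, which also had the highest fibroblast and meningeal marker sum after 3 weeks, at 378 CPM. Serping1 averaged 6.20 ± 0.32 CPM at 24 months (n = 2) and 12.6 ± 2.07 CPM at 2 months (n = 3). C5ar1 kept its call over the ages only with P5 in the fit (without it, adjusted p = 0.186); the count was 7 without P5 and 8 without the 2-month libraries.

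The anaphylatoxin receptor genes were low throughout. C3ar1 had its lowest mean at 5 weeks, with 1.25 to 1.68 CPM, and had 2.25, 3.03 and 3.48 CPM at 18 months and 2.90 and 2.91 CPM at 24 months. C5ar1 had 1.496 and 0.576 CPM at 24 months, and 7 to 51 reads per library over the series. Those 2 libraries lay above and below all 18-month libraries (0.652 to 1.16 CPM). Itgam reached its later level by 6 months: its means were 26.2, 25.04, 26.1 and 27.1 CPM at 6, 12, 18 and 24 months, and these ages overlapped.

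**Figure D5:**
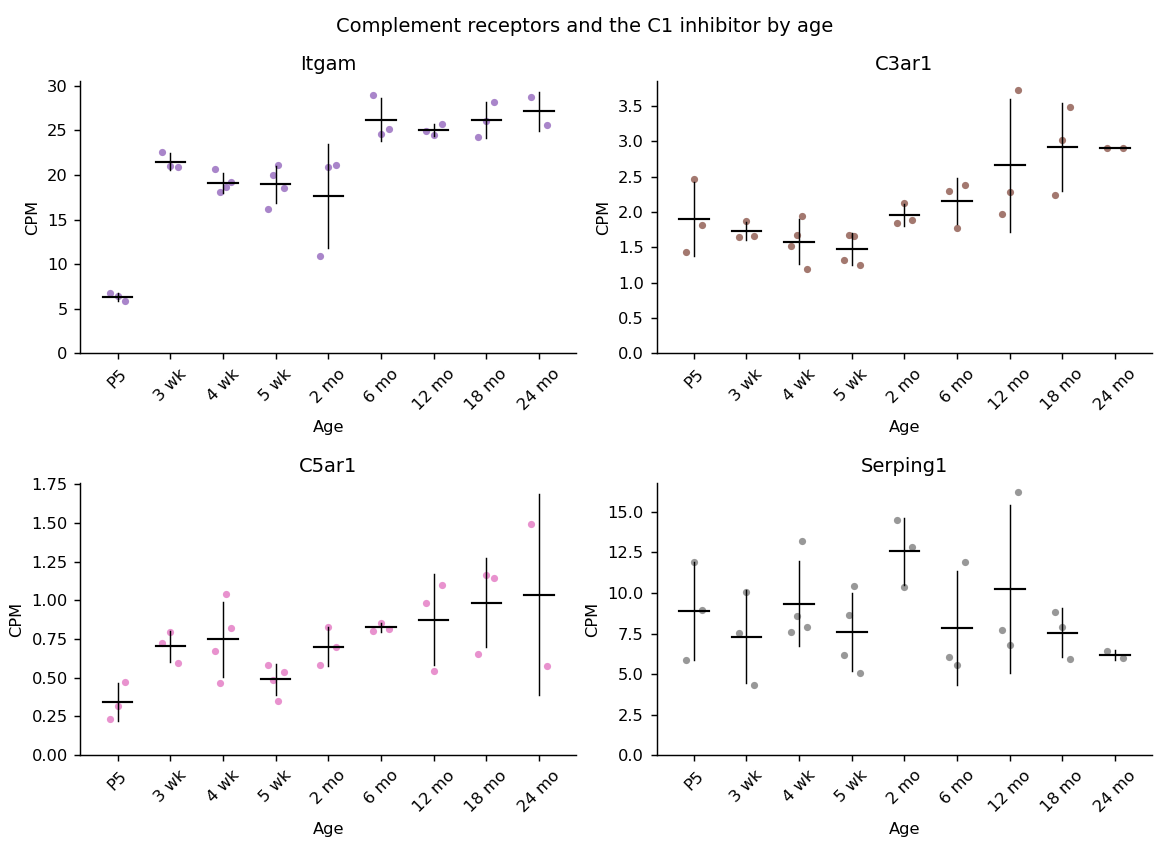
CPM of Itgam, C3ar1, C5ar1 and Serping1 in each of 28 libraries (points) by age, with the mean (horizontal bar) and 1 SD (vertical line). Itgam lies at 5.89 to 6.79 CPM at P5 and at 24.2 to 28.9 CPM from 6 months on, while Serping1 spreads over 4.31 to 16.2 CPM.

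The rest of the cascade was read from 4 further lists. Of 13 genes of the classical and lectin pathway 10 could be tested. Between 3 weeks and P5 only C1s1, which makes the C1s protease, was called, at 1.11 (edgeR, adjusted p = 0.0153), and between 6 months and 5 weeks only Masp1, which makes a lectin pathway protease, at -0.61 (adjusted p = 0.00824). Masp1 also fell in the adult trend, by 0.0302 per month on the log2 scale (adjusted p = 0.0152), and without the 2-month libraries its slope was -0.0239 (adjusted p = 0.449). Of 10 genes of the alternative and terminal pathway 5 could be tested. Cfb, which makes factor B, fell by 0.38 between 3 weeks and P5 (adjusted p = 0.0257) and rose by 0.62 between 6 months and 5 weeks (adjusted p = 0.00372), and Hc, which makes C5, fell by 0.86 at the first step (adjusted p = 0.0498). With P5 replicate 3 alone at P5 the calls of C1s1 (1.33, adjusted p = 0.0747), Cfb (-0.45, adjusted p = 0.0734) and Hc (-0.98, adjusted p = 0.0885) were lost.

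Of 20 regulators 17 could be tested, and between 3 weeks and P5 6 rose and 6 fell, at the step where 59% of all genes were called. The 4 with the smallest p were Clu, which makes clusterin (1.53, adjusted p = 5.39e-11), Cd59a, an inhibitor of the membrane attack complex (2.01, adjusted p = 1.99e-08), Sez6l (-0.58, adjusted p = 1.67e-07) and Cd55, which speeds the decay of convertases (-1.13, adjusted p = 4.30e-05). With P5 replicate 3 alone these 4 were called at 1.54, 1.91, -0.56 and -1.26. No regulator was called between 5 and 3 weeks or between the later ages. In the adult trend Vtn, which makes vitronectin, fell by 0.0378 per month (adjusted p = 0.00831), and without the 2-month libraries its slope was -0.0292 (adjusted p = 0.365).

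Of 8 other receptor genes 7 could be tested, and Itgax was the one called late in life. It makes CD11c, the alpha chain of the receptor CR4, and had 1.34, 1.82 and 2.54 CPM at 18 months and 1.61 and 2.00 CPM at 24 months, against 0.350, 0.395 and 0.458 CPM at 6 months. All 5 older libraries lay above the 6-month libraries, a separation that was not counted over all genes. Genes were named only with at least 1 CPM at any age. The mean of Itgax reached that only at 18 and 24 months, at 1.90 and 1.81 CPM. Its reads numbered 40 over the 6-month libraries, 173 at 18 months and 121 at 24 months, and its lowest count in any library was 3. The log2 changes were 2.25 ± 0.34 at 18 months (edgeR, adjusted p = 0.00531) and 2.17 ± 0.36 at 24 months (adjusted p = 0.0262), and the adult slope was 0.163 ± 0.021 per month (adjusted p = 0.00193). Itgb2, the beta chain shared by CR3 and CR4, rose by 0.0405 per month (adjusted p = 0.0191). Without the 2-month libraries the slopes were 0.141 for Itgax (adjusted p = 0.195) and 0.0264 for Itgb2 (adjusted p = 0.448). Cd93, which makes a surface protein first described as a C1q receptor, fell by 0.76 between 3 weeks and P5 (adjusted p = 4.26e-05) and by 0.74 between 5 and 3 weeks (adjusted p = 0.00168), and Calr, which makes the chaperone calreticulin, fell by 0.20 (adjusted p = 0.0218) and 0.42 (adjusted p = 0.000625). With P5 replicate 3 alone the first step gave -0.68 for Cd93 and -0.13 for Calr. Between 5 and 3 weeks the share of reads of low mapping quality also differed, and its part in these calls was not tested.

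For each member, the genes whose log2 CPM followed it most closely over the 28 libraries are named by Pearson correlation. These correlations share the libraries and the large difference between P5 and later ages, and they are given as a description. For C1qa they were Ctss (0.974), Tyrobp, B2m, Ctsz and Ifit1, and for C1qb Ctss (0.979), H2-T23, Ctso, Ifit3b and Ifit1. For C1qc they were Selplg (0.947), Tmem106c, Itm2c, Ctsd and Irf7. For Itgam they included Pcgf5 (0.959), Elac1, Itgb2 and Chic1. C4b was followed by Parp12 (0.957), Dgka, Parp4, H2-Q4 and Abca8a, and C3 by Lrrc36 (0.886), Wdr78, Ttll3, Nlrc5 and Pih1d2. Serping1 was followed by Ogn (0.894), Sphk1, Aldh1a2, Asgr1 and Fmod, C3ar1 by Dpyd (0.848), Msn, Ggta1, Dcdc2a and Mob3c, and C5ar1 by genes that included Skap2 (0.826), Cd300c2, Prps1l3 and Pctp. Among the members themselves the highest value was that of C1qa with C1qb (0.986), and C3 with C4b gave 0.794. Over the 25 libraries without P5, none of the genes named for C1qc and Itgam was among their closest 5. Those of Serping1 stayed in another order, and those of the other members changed in part, with Ctss kept for C1qa and C1qb.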

How the data were processed

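The submitters' processing notes name HISAT2 2.1.0, HTSeq 0.9.1 and the build mm10 (GRCm38). Each deposited file holds raw counts by gene symbol for 1 library. For the annotation, the strand setting and read trimming, the choices made are not given in the sources consulted. Counts of near-identical or overlapping genes are therefore uncertain. The HTSeq summary lines (26.1 to 32.5% of a library) were removed, which left 24661631 to 39783779 gene counts per library, so that 3 counts make at most 0.122 CPM. One 24-month library (replicate 5), with 2377580 counts in 1385 genes, was left out by the rule that a library must count at least 5000 genes, and all 9 complement genes were at 0 in it. No 2 libraries held identical values.

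From the deposited counts, CPM was computed here on TMM-scaled library sizes; log2 CPM used a prior count of 1. Genes were filtered with filterByExpr and tested with edgeR 4.0.16 (R 4.3.3, limma 3.58.1) in 1 quasi-likelihood fit with a mean per age over 28 libraries, and p-values were adjusted (Benjamini-Hochberg) over all genes tested. The adult trend was a separate fit on age in months over 14 libraries. Errors are 1 SE for log2 changes and slopes and 1 SD for CPM. DESeq2 1.42.0 was an alternative, beside other normalizations, filters and sets of libraries, and the scripts were tested on simulated data. Genes outside the 9 were named by rule: up to 4 called genes per list and comparison, smallest p first, with at least 1 CPM at any age, and the 5 genes with the highest Pearson correlation per member (mean of at least 1 CPM); 2 of the latter are not reported here. The members and lists were chosen with earlier results of these data known. Promoter windows are from RefSeq, and 6 of the 9 genes matched.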

Additional observations from a re-analysis of the deposited data

Results flagged for a closer look

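Serping1 at 4 weeks was set apart by 1 library, replicate 3, with 13.2 CPM beside 7.62, 7.93 and 8.57 CPM in the other 4-week libraries; its gap to the nearest was just over Dixon's 95% critical value. It was the only one of 18 groups of 4 libraries (9 genes at 4 and 5 weeks) to pass, and chance gives about 1 in 20.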

How the results depend on the processing

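Counts are of the 9 genes called. DESeq2 called 1 at 18 months against 6 months, 1 at 24 months against 6 months and 2 at 18 and 24 months against 6 and 12 months, where edgeR called none. With 2 months in place of 6 months, the counts were 0 against 5 weeks (C3 -0.35 and Itgam -0.10 turned direction), 5 at 18 months (Itgam turned direction, to 0.57) and 6 at 24 months; with 2 months in place of 6 and 12 months the pooled count was 6. The substitutions at 18 and 24 months were chosen after seeing the data. With all 29 libraries, the partial one included, the test over 9 ages and the adult trend gave 0 each. Without the 2-month libraries the adult trend gave 0, and without the 24-month libraries it lost C1qa. Leaving out 1 library gave 5 to 6 for 3 weeks against P5, 1 to 3 for 6 months against 5 weeks (1 without 5-week replicate 1 or 4 or 6-month replicate 32), 0 to 1 for 18 months against 6 months (1 without 18-month replicate 15), 3 to 6 for the adult trend (3 without 24-month replicate 2, 6 without 12-month replicate 28), 8 over the 9 ages and 0 in the other comparisons. For single genes, 761 of the values without 1 library and 429 of those under other settings kept their direction and side of the threshold. With the direction kept, 18 and 24 lost a call, and 2 and 23 gained one. Under other settings 3 more turned direction and lost or gained a call. A further 29 and 15 turned direction without a call on either side. The cause was not tested. With the replicate number as a block, 3 weeks against P5 gave 6 and 5 weeks against 3 weeks gave 0, as without it, and over all genes 9787 and 231 were called. The test over 9 ages, blocked for P5 to 5 weeks, gave 7, without C5ar1 (a setting chosen after seeing the data). Deviations of same-numbered libraries correlated at 0.0416 to 0.1315 and at -0.209 to -0.119, so the numbers were not taken to pair the libraries. No paired analysis was possible for the comparisons from 6 months on or for the adult trend because the adult ages share no replicate numbers with each other or, at 6 months, with 5 weeks. Of the 9 genes, depth limits C5ar1 most, at 7 to 51 reads per library. Itgax, outside the 9, had 3 to 89 reads per library.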
